A study of Mus musculus with 8 samples.

Results

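Interferon-stimulated genes are the genes that cells switch on when interferon binds its receptors. A list of 35 of them was followed through RNA labelled as spleen, of miR-155 knockout and wild-type mice, by gene name on a NimbleGen expression array, with the brightest feature by mean over the 8 arrays taken for each gene. Of the 35 genes, 34 were measured, among 24203 named genes on the array. Usp18, the protease that removes ISG15 from proteins, has no feature under that name and is not analysed here. No measured difference was used to choose the list, but it was chosen with earlier results of these arrays known.

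The series compared 4 mice without microRNA-155 with 4 wild-type mice, described as separate spleens, to ask which transcripts differ when this regulator of lymphocytes and macrophages is missing. The knockout animals are named Mim1-5 and Mim1-6, labelled female, and Mim2-2 and Mim2-3, labelled male. WT-1 and WT-3 are wild-type animals labelled female, and WT-2 and WT-4 wild-type animals labelled male. Strain, age, the extent of the deletion and any treatment are not given in the sources used here. In the knockout group the labelled sex and the name prefix coincide, so the Mim1 and Mim2 animals and the labelled sexes cannot be told apart.

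As background, type I interferons signal through IFNAR1 and IFNAR2 to a complex with STAT2 and IRF9, which binds the interferon-stimulated response element (ISRE) and turns on antiviral genes such as the Ifit, Oas and Mx families. Interferon gamma signals through its own receptor, acts on genes with a gamma-activated site (GAS) and favours guanylate-binding proteins, immunity-related GTPases and the chemokines CXCL9 and CXCL10, although the target sets overlap. In the spleen, plasmacytoid dendritic cells are a known source of type I interferon, and lymphocytes, macrophages and stromal cells respond to it. IRF7 amplifies the response by driving further interferon transcription.

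The mature microRNA that the knockout lacks is shown first, since its gene is what the knockout label names. In the RefSeq table of build GRCm38.p6 it lies at chr16:84714143-84714165 on the plus strand, and capitals mark its seed, bases 2 to 8.
miR-155-5p: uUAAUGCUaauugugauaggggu

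Promoters of 5 members are shown because the members' values part in different ways. Ifit1 and Irf7 had wide ranges over the arrays, Irgm1 and Igtp stand for the interferon-gamma type GTPases, and Cxcl10 had the largest genotype difference among the members above zero. Each window runs from 250 bases before to 50 bases after a gene start in RefSeq, build GRCm38.p6, 5′ to 3′ along the gene. Capitals mark matches to the ISRE letters GAAANNGAAA or the GAS letters TTCNNNGAA, searched on both strands.
Ifit1, chr19:34640639-34640938, plus strand: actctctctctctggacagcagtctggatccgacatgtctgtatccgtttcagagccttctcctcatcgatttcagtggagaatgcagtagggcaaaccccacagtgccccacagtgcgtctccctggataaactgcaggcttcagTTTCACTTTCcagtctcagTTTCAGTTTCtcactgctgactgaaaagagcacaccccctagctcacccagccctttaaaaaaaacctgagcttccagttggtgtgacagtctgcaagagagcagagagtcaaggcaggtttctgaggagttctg
Irf7, chr7:141266375-141266674, minus strand: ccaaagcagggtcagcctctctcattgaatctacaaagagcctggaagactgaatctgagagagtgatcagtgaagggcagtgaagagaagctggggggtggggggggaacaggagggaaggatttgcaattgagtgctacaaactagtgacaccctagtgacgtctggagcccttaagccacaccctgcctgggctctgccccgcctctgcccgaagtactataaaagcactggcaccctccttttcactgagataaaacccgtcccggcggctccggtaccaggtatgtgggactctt
Irgm1, chr11:48871371-48871670, minus strand: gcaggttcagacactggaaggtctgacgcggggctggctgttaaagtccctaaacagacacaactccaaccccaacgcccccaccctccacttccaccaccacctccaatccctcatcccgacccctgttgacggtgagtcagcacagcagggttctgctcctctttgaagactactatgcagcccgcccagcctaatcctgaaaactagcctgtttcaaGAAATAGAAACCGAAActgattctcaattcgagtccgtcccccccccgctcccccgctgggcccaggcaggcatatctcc
Igtp, chr11:58199306-58199605, plus strand: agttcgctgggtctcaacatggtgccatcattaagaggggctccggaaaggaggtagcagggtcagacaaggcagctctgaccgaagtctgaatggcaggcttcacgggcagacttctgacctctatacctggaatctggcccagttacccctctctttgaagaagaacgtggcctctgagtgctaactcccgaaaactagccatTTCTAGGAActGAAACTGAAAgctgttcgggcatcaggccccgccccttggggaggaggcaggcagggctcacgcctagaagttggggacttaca
Cxcl10, chr5:92348840-92349139, minus strand: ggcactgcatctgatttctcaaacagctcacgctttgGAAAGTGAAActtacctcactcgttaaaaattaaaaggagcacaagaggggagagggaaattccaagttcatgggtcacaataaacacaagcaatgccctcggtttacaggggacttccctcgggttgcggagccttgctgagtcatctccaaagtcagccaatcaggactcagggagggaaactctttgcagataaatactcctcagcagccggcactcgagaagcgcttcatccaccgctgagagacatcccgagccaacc
Ifit1 has 2 ISRE matches, which begin 104 and 85 bases before its start. Irgm1 has 2 that overlap, from 30 and 24 bases before the start. In Igtp a GAS match begins at 45 bases and an ISRE match at 34 bases before the start, and in Cxcl10 the ISRE match begins at 213 bases. The Irf7 window holds neither run of letters, which says nothing about the factors that bind there. RefSeq windows were found for 25 of the 35 genes, 29 windows in all. The ISRE letters occurred in 15 of these windows (51.7%) and in 3.44% of the 32851 windows in the table. The GAS letters occurred in 6 (20.7%) against 8.3% of all windows. The start of an ISRE can overlap the end of a GAS, as it does in Bst2. Among the antiviral Ifit, Oas and Mx genes 4 of 8 windows held the ISRE letters, and among the interferon-gamma type genes 5 of 7. GAS letters occurred in 2 of 8 and 1 of 7 windows.

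The arrays were alike in scale but not in tissue content. Median intensity per array ran from 112 to 119, and the log2 level of 5000 random probes, used as the background, from 4.94 to 5.24. Spleen markers were present on all arrays, with the mean log2 intensity of 7 B cell markers at 8.89 to 10.73 and of 6 red pulp macrophage markers at 9.10 to 10.61. Milk and mammary epithelial genes, which do not define spleen, were bright as well, so markers of another tissue go against the label spleen. Over 10 such genes the means of the knockout arrays were 11.02, 10.63, 8.10 and 9.70, the last pair being Mim2. Wild-type means ran from 11.59 to 12.01, so these list means did not overlap between genotypes. All 10 genes were lower in the knockout in sign, but only 2 of them, Csn2 and Csn1s1, had no overlap. Krt18 read 14.22 and 14.40 in the Mim1 arrays, within the wild-type range of 13.47 to 14.52, and Csn3 was highest in Mim1-5. The 4 adipose markers averaged 11.93 and 11.36 in the Mim2 animals and 7.83 to 8.48 elsewhere. The Mim2 arrays stood apart across all features, with correlations of 0.811 to 0.877 to the other 6 arrays, which correlated with each other at 0.911 to 0.943. BIC, the transcript from which miR-155 is processed, read 5.28 to 7.51 in the knockout and 4.84 to 5.63 in the wild-type arrays, and since no source used here says whether its feature lies in the deleted part, it checks no label. Xist and the Y-linked Ddx3y did not separate the labelled sexes. Xist read 8.35 to 11.10 over the 8 arrays, and Ddx3y 8.39 to 8.83 in all 4 knockout and 6.26 to 7.33 in all 4 wild-type arrays. Sex is therefore given as labelled, and every sex term, interaction and within-sex difference rests on labels that these genes do not bear out. In such bulk RNA, fewer cells of a type and less RNA per cell cannot be told apart.

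Knockout against wild type gave no interferon-stimulated gene past the threshold. With limma, genotype and labelled sex in the model and Benjamini-Hochberg adjustment over all 44170 features, 0 of 34 members had an adjusted p under 0.05, against 0% of all features. At an unadjusted p under 0.05 there were 6122 features, and a fit with trended, robust variance estimates called 16 features, none of them a member. Among the members 3 were higher in the knockout at an unadjusted p under 0.05 (Cxcl10, Gbp4 and Stat2), against 7.7% of all genes in that direction, and 1 was lower (Rsad2), against 6.61%. In sign 13 members were higher and 21 lower, and the median difference was -0.14 in log2 units, where it was 0.06 over all genes. The knockout arrays lay entirely above the wild-type arrays for 1 member, Cxcl10, where 5.27% of genes did so, and entirely below for 0 members, where 2.55% of genes did so. A share near that of all genes is no result about the members. In fits that kept the labelled-sex term, the median over the members was 0.56 without the Mim2 arrays and 0.29 without WT-4. The sign of the median so turned with either. Without the Mim2 arrays such a fit compares the Mim1 animals with WT-1 and WT-3 only. WT-2 and WT-4 then set only the sex term.

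**Figure D1:**
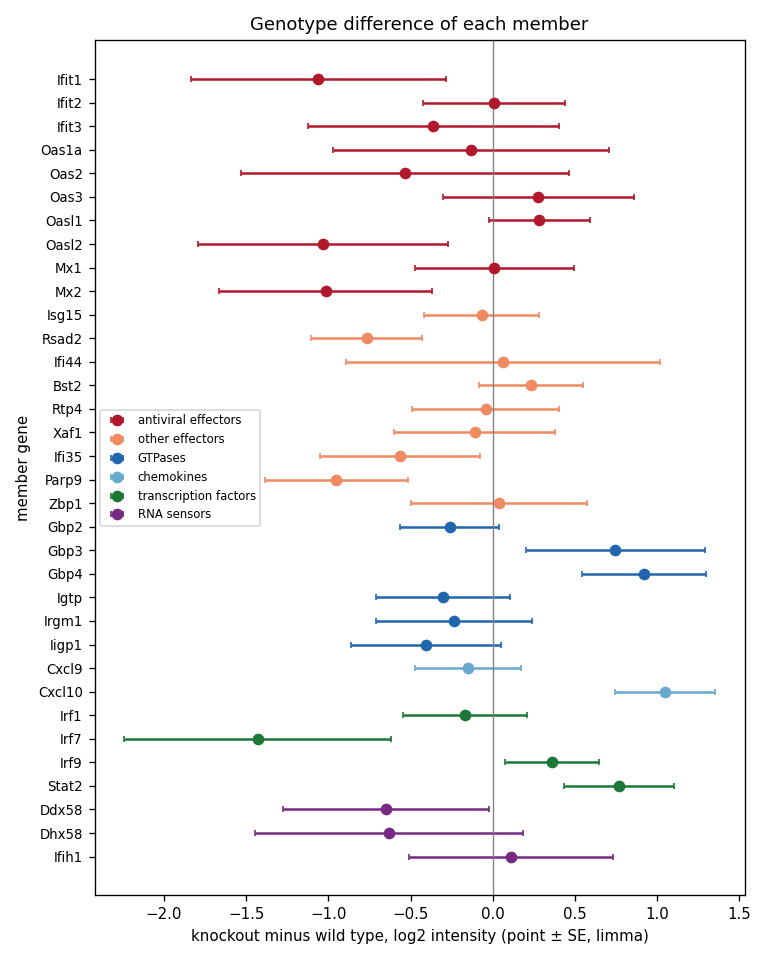
Knockout minus wild type difference in log2 intensity (x axis) for each of the 34 measured members (y axis), coloured by role, with points for the limma estimate and bars for its SE (4 arrays per group). Cxcl10 at 1.05 and Irf7 at -1.43 mark the ends, and Oas2, Ifi44 and Oas1a have the widest bars.

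No antiviral effector passed the test between genotypes, and several spread over a wide range within each genotype. They comprise the Ifit proteins, which bind foreign RNA, the 2'-5' oligoadenylate synthetases, which activate RNase L, and the Mx GTPases, which block viral replication. Below, values are log2 intensities in the order Mim1-5, Mim1-6, Mim2-2, Mim2-3 for the knockout and WT-1 to WT-4 for the wild type, and differences are knockout minus wild type ± SE with n = 4 arrays per group. Ifit1, on chr19:34715406-34724060 of build MM9, read 9.48, 9.22, 6.18 and 5.87 in knockout and 9.58, 7.48, 7.96 and 9.97 in wild-type animals. Both Mim1 animals lay close to the upper wild-type animals, and both Mim2 animals lay below every other array, a span of 17.2-fold from lowest to highest. The difference was -1.06 ± 0.78 (limma adjusted p = 0.561; exact permutation p = 0.314). Mx2 read 7.37, 6.54, 4.97 and 5.48 in knockout and 7.89, 6.63, 5.76 and 8.15 in wild-type animals. Its Mim2-2 value lay under the random probes of that array, both Mim2 arrays were again the lowest, and the difference was -1.02 ± 0.65 (adjusted p = 0.503).

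Oasl2, an OAS family protein, read 9.92, 10.22, 7.12 and 7.85 in knockout and 9.89, 8.50, 9.33 and 11.52 in wild-type animals. The genotypes overlapped, the Mim2 arrays were the 2 lowest and WT-4 the highest, with a difference of -1.03 ± 0.76 (limma adjusted p = 0.566). Oas1a read 8.78, 8.38, 8.70 and 4.42 in knockout and 8.26, 6.77, 7.58 and 8.19 in wild-type animals. Its lowest value, in Mim2-3, lay under the random probes and about 4 log2 units under the other knockout arrays, while a second, dimmer Oas1a feature read 5.24 in Mim2-2 and 5.86 in Mim2-3. The remaining antiviral genes were Ifit2, Ifit3, Oas2, Oas3, Oasl1 and Mx1, whose differences ran from -0.53 ± 0.998 for Oas2 to 0.28 ± 0.31 for Oasl1. Oas2 had the widest range of all members, 31.6-fold, with 11.58 in WT-4 and 6.60 in Mim2-3. Oasl1 spanned 1.94-fold.

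**Figure D2:**
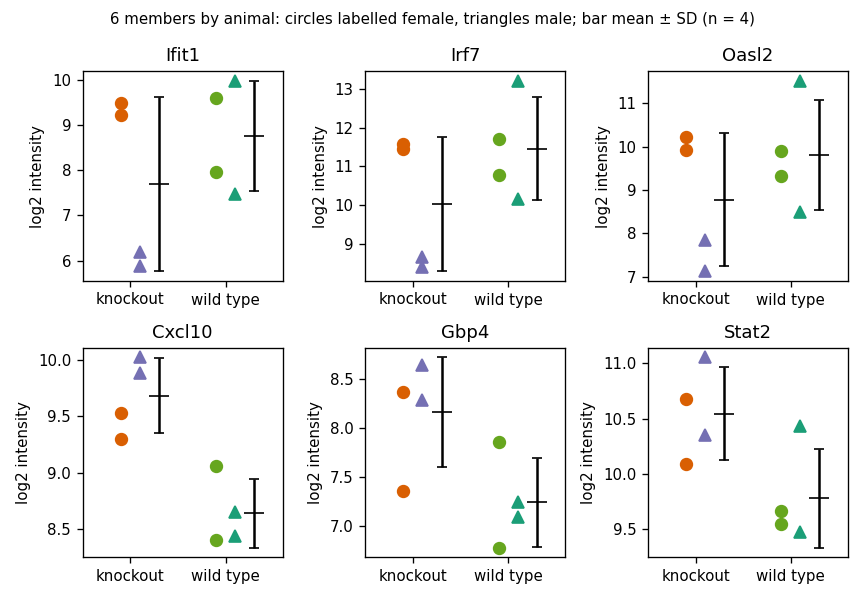
Log2 intensity (y axis) of 6 members in each animal, by genotype (x axis), with circles for animals labelled female, triangles for those labelled male and bars for the mean ± SD (n = 4). Ifit1, Irf7 and Oasl2 have the 2 knockout animals labelled male below all other animals, and Cxcl10 has all 4 knockout animals above the wild-type animals.

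Other effectors gave 3 higher and 6 lower differences among 9 measured genes, and 1 of them, Rsad2, had an unadjusted p under 0.05. Rsad2 encodes viperin, which makes a chain-terminating ribonucleotide. Rsad2 read 8.82, 8.76, 9.63 and 10.18 in knockout and 10.24, 9.91, 10.08 and 10.21 in wild-type animals. The wild-type arrays were close together (10.11 ± 0.15, SD) and the Mim1 arrays lowest, the opposite of the pattern of Ifit1. The difference was -0.77 ± 0.34 (limma p = 0.0487, adjusted p = 0.358; exact permutation p = 0.0857). The second Rsad2 feature read 8.78, 9.15, 7.66 and 7.98 in knockout and 9.24, 7.27, 6.88 and 9.25 in wild-type animals, with the Mim1 and Mim2 animals in the other order and a difference of 0.23. The difference averaged over both features was -0.27 (unadjusted p = 0.481).

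Parp9, an ADP-ribosyltransferase partner of the ubiquitin ligase DTX3L, read 10.29, 10.90, 9.17 and 8.70 in knockout and 11.15, 10.21, 10.35 and 11.14 in wild-type animals. Both Mim2 arrays were the lowest of the 8, and the difference was -0.95 ± 0.43 (limma adjusted p = 0.371). Isg15, the ubiquitin-like modifier, read 10.24, 10.17, 9.65 and 10.24 in knockout and 10.16, 9.89, 9.63 and 10.89 in wild-type animals. It kept within 2.39-fold over all arrays, and the difference was -0.07 ± 0.35 (adjusted p = 0.948). Rtp4, a chaperone of receptor transport, read 11.89, 11.38, 10.35 and 10.36 in knockout and 11.13, 10.76, 10.44 and 11.84 in wild-type animals. Xaf1, a partner of the inhibitor of apoptosis XIAP, read 9.66, 10.08, 8.53 and 8.49 in knockout and 9.32, 8.94, 8.63 and 10.31 in wild-type animals. In both genes the Mim2 arrays were the 2 lowest, by a small margin to WT-3, and the group means were nearly equal (-0.04 ± 0.45 and -0.11 ± 0.49). Ifi44, Bst2, Ifi35 and Zbp1 had differences from -0.56 ± 0.49 (Ifi35) to 0.23 ± 0.32 (Bst2), and Ifi44 spanned 19.5-fold, from 5.44 in Mim2-2 to 9.73 in WT-4.

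The interferon-gamma type genes held the 2 largest positive differences. CXCL10 attracts activated T cells and NK cells that carry CXCR3. Cxcl10, on chr5:92775664-92777882 of MM9, read 9.30, 9.53, 10.03 and 9.88 in knockout and 9.06, 8.65, 8.40 and 8.43 in wild-type animals. Every knockout array lay above every wild-type array, with means of 9.69 ± 0.33 and 8.64 ± 0.31 (SD, n = 4). The difference was 1.05 ± 0.30, or 2.07-fold (limma p = 0.007, adjusted p = 0.272), and the exact permutation p was 0.0286, the smallest that 70 arrangements can give. In the fit without the Mim2 arrays, which compares Mim1 with WT-1 and WT-3, the difference was 0.68 (limma unadjusted p = 0.125). Cxcl9, which binds the same receptor, read 7.31, 7.44, 8.07 and 7.70 in knockout and 8.22, 7.69, 7.88 and 7.33 in wild-type animals. The genotypes overlapped, with a difference of -0.15 ± 0.32 (adjusted p = 0.865).

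The GTPases of this type act on the membranes of vacuoles that hold intracellular pathogens. Gbp4 read 8.37, 7.36, 8.64 and 8.29 in knockout and 6.78, 7.25, 7.86 and 7.09 in wild-type animals. It was higher in the knockout apart from an overlap of Mim1-6 with WT-3, with a difference of 0.92 ± 0.38 (limma p = 0.0366, adjusted p = 0.337; exact permutation p = 0.0571). Gbp3 read 10.17, 9.96, 9.48 and 9.63 in knockout and 8.26, 8.81, 8.32 and 10.87 in wild-type animals. The knockout arrays lay above 3 of the wild-type arrays and below WT-4, and the difference was 0.75 ± 0.54 (adjusted p = 0.561). Irgm1 read 10.36, 10.93, 8.99 and 8.997 in knockout and 10.10, 9.21, 10.02 and 10.90 in wild-type animals. Irgm1 was the only 1 of the 8 interferon-gamma type genes with the Mim2 arrays as its 2 lowest, and its difference was -0.24 ± 0.47 (adjusted p = 0.851). Gbp2, Igtp and Iigp1 had differences of -0.26 ± 0.30, -0.30 ± 0.41 and -0.41 ± 0.46.

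B cell markers moved with genotype in the same direction as Cxcl10 and Gbp4, at 10.07 to 10.73 over 7 genes in knockout and 8.89 to 9.46 in wild-type animals. So did the 5 plasmacytoid dendritic cell markers, at 8.85 to 9.87 against 8.11 to 8.58. These are means over the lists. Of the 7 B cell genes 6 were higher in the knockout in sign and 4 had no overlap. Pax5 went the other way, at -0.20, and was highest in WT-3. The 6 genes of the exocrine pancreas averaged 7.32 to 8.36 in knockout and 5.46 to 5.92 in wild-type animals. Only 3 of these 6 were above the random probes on all arrays. Among the 4 wild-type arrays, Cpa1 and Prss2 were above them on 1 and Clps on 2. T cell markers averaged 9.11 to 9.97 in knockout and 8.48 to 9.08 in wild-type animals over 7 genes. The means of the neutrophil markers (6 genes, 8.12 to 9.04 against 9.12 to 9.52) and of the mammary list (8.10 to 11.02 against 11.59 to 12.01) were lower in every knockout array than in any wild-type array. Single neutrophil genes did not all follow, with 5 lower and 1 higher in sign. Ltf (-2.33) and Camp (-1.67) had the largest differences, and only Camp had no overlap. Ltf had the Mim2 arrays as its 2 lowest, at 9.59 and 7.68, as had Krt8, Krt18 and Elf5 of the mammary list. The neutrophil means rest in large part on Ltf and Camp, and show no lower level of neutrophil markers in general. S100a8 and S100a9 were highest in Mim2-3 and Elane in Mim2-2. The part of these cell types in the differences of Cxcl10, Gbp4 and Stat2 was not tested.

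Among the transcription factors, Irf7 had the largest negative difference of all members and Stat2 one of the largest positive ones. Irf7, on chr7:148449087-148452300 of MM9, read 11.58, 11.46, 8.67 and 8.41 in knockout and 11.71, 10.16, 10.77 and 13.20 in wild-type animals. The Mim1 arrays sat in the wild-type range, the Mim2 arrays below it and WT-4 above all others, a span of 27.6-fold. The difference was -1.43 ± 0.81 (limma p = 0.112, adjusted p = 0.458; exact permutation p = 0.229). A second Irf7 feature gave -1.47 with the same 2 arrays lowest and WT-4 highest at 12.80. Stat2 read 10.09, 10.68, 10.35 and 11.06 in knockout and 9.54, 9.47, 9.66 and 10.44 in wild-type animals. WT-4 overlapped the knockout range, and the difference was 0.77 ± 0.33 (limma p = 0.0466, adjusted p = 0.356; exact permutation p = 0.0857). Irf9, the DNA-binding subunit, differed by 0.36 ± 0.28 and kept within 1.92-fold in its brightest feature. Another Irf9 feature, nearly as bright, differed by -0.54, with the Mim2 arrays lowest at 9.44 and 9.94 and WT-4 highest at 11.63. A further, dimmer Irf9 feature differed by -0.10. For Irf1, the gamma-induced factor, the brightest feature differed by -0.17 ± 0.38 and another, nearly as bright, by 0.86 (unadjusted p = 0.0204), so the features of this gene disagree in sign.

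The RNA sensors, which detect viral RNA in the cytosol, also had wide ranges. Ddx58, which encodes RIG-I, read 7.05, 7.91, 6.74 and 5.45 in knockout and 7.37, 6.65, 6.81 and 8.91 in wild-type animals. Dhx58, which encodes LGP2, read 10.31, 11.28, 6.92 and 9.93 in knockout and 10.16, 9.38, 9.95 and 11.48 in wild-type animals. WT-4 was highest for all 3 sensors, and the lowest array was Mim2-3 for Ddx58 and Mim2-2 for Dhx58. Differences were -0.65 ± 0.63 for Ddx58, -0.63 ± 0.82 for Dhx58 and 0.11 ± 0.62 for Ifih1, which encodes MDA5 (limma adjusted p = 0.665, 0.756 and 0.951).

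Antiviral and interferon-gamma type genes were then compared array by array. Each gene was set to its own mean over the 8 arrays, since levels of different features are not comparable, and the deviations were averaged over the 10 antiviral (Ifit, Oas, Mx) and the 8 interferon-gamma type (Gbp, Irg, Cxcl9, Cxcl10) genes. The antiviral mean was 0.59, 0.48, -0.75 and -1.03 in the knockout arrays and 0.35, -0.72, -0.38 and 1.46 in the wild type. WT-4 and Mim2-3 were its extremes, 2.49 log2 units apart, and each genotype held arrays well above and well below zero. The interferon-gamma type mean was 0.36, 0.09, -0.02 and -0.09 in knockout and -0.07, -0.51, -0.10 and 0.34 in wild-type animals. Its span was 0.87 log2 units, with WT-2 lowest. The median SD of a gene over the 8 arrays was 1.19 for the antiviral genes, 0.67 for the interferon-gamma type and 0.61 for all genes.

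**Figure D3:**
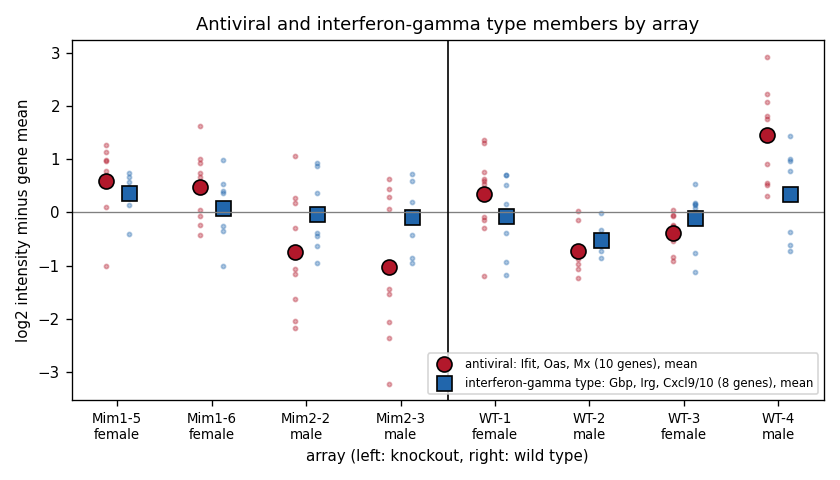
Deviation in log2 intensity from each gene's own mean (y axis) on each of the 8 arrays (x axis), as small points for single genes and large symbols for the mean of the antiviral (circles) and interferon-gamma type genes (squares). The antiviral means span 2.49 log2 units, lowest in Mim2-3 and highest in WT-4, and the interferon-gamma type means span 0.87.

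Between genotypes, the antiviral mean was -0.18 ± 0.83 over knockout and 0.18 ± 0.96 over wild-type arrays (SD, n = 4), a difference of -0.36. The interferon-gamma type mean was 0.08 ± 0.20 and -0.08 ± 0.35, a difference of 0.17. Antiviral minus interferon-gamma type, the genotype difference was -0.53, less than the SD of either group of arrays (0.67 and 0.65). In fits that kept the labelled-sex term, leaving out 1 array moved it to between -0.82 (without WT-3) and -0.11 (without WT-4). Plain means over the arrays without WT-4 gave -0.24. With medians over the genes in place of means, the genotype difference was -0.05. No p is given for these averages. The median over the interferon-gamma type genes was -0.19, opposite in sign to their mean, since the 3 positive differences (Cxcl10, Gbp4 and Gbp3) are larger than the 5 negative ones. In the fits with the sex term, the antiviral difference was 0.55 without the Mim2 arrays and 0.26 without WT-4. Plain means over the arrays without WT-4 gave 0.07. The sign of the antiviral difference thus rested on those arrays. Without the Mim2 arrays, antiviral minus interferon-gamma type turned to 0.24. That fit compares Mim1 with WT-1 and WT-3, the same contrast as in animals labelled female below.

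WT-4 was the highest of the 8 arrays for 18 of 34 members, against 11.5% of all genes, and for 6 of 10 antiviral and 3 of 8 interferon-gamma type genes. Its antiviral mean exceeded that of the other wild-type animals by 1.71 log2 units, with Oas2 3.55 and Oas3 2.61 above them. Cxcl9 and Cxcl10 ran the other way, at -0.60 and -0.27 relative to the mean of the other wild-type animals. Mean marker levels in WT-4 were 11.85 for the mammary list, within the 11.59 to 12.01 of the other wild-type arrays, 8.89 for B cells against 9.23 to 9.46, and 8.11 for plasmacytoid dendritic cells against 8.35 to 8.58. The Mim2 animals were the 2 lowest arrays for 9 of 34 members, against 14.4% of all genes: Ifit1, Mx2, Oasl2, Irf7, Irgm1, Rtp4, Xaf1, Ifi35 and Parp9.

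**Figure D4:**
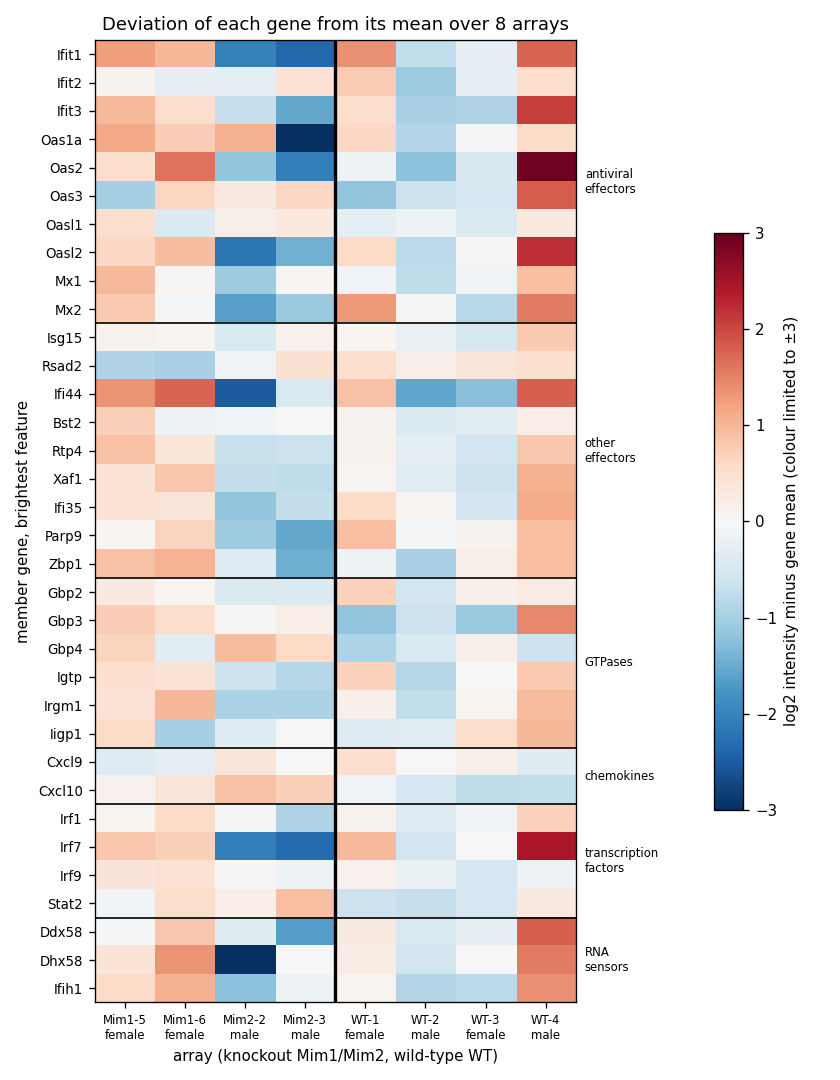
Deviation of each member (rows, grouped by role) from its own mean on each array (columns, knockout left of the line), in log2 intensity from blue (lower) to red (higher), with the colour limited to 3 units either way. The WT-4 column is red in 18 members as the highest array, and both Mim2 columns are blue for Ifit1, Ifit3, Oas2, Oasl2, Mx2 and Irf7 but not for Cxcl10 or Gbp4.

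The labelled sexes split the knockout group. In the fit with a genotype by sex interaction, the knockout animals labelled male (Mim2) were compared with those labelled female (Mim1). At an unadjusted p under 0.05, 11 members were lower in Mim2, where 10.9% of all genes were. The 1 member that was higher was Rsad2, where 2171 of 24203 genes were higher at that level. The second Rsad2 feature went the other way, at -1.15. None of the 34 passed after adjustment, where 1.58% of all genes were lower in the Mim2 animals. The Mim2 minus Mim1 difference was -3.32 ± 0.83 for Ifit1 (limma adjusted p = 0.0901), -3.03 ± 1.18 for Ifi44 (adjusted p = 0.222), -2.98 ± 0.88 for Irf7 (adjusted p = 0.128) and -2.59 ± 0.87 for Oasl2 (adjusted p = 0.169). The median over the members was -1.23 in the knockout, and 0.28 for male minus female in the wild type. The antiviral median was -1.80 and the interferon-gamma type median -0.25. Mammary and adipose markers differ between the same pairs of animals, as given above, and their part in these differences was not tested.

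Within each labelled sex, the median genotype difference of the members was 0.56 in animals labelled female and -0.79 in those labelled male, with 2 against 2 arrays in each. The value in animals labelled female is the same contrast as the fit without the Mim2 arrays, and no second result. In those labelled male 0 of 34 members passed after adjustment, where 4.26% of all genes did. There Irf7 differed by -3.14 ± 0.88 (limma adjusted p = 0.0846), Ifit1 by -2.70 ± 0.83 (adjusted p = 0.105) and Parp9 by -1.74 ± 0.49 (adjusted p = 0.0866), and Cxcl10 by 1.41 ± 0.38 (adjusted p = 0.0782). In those labelled female the largest differences were 1.78 ± 0.62 for Gbp3 and 1.73 ± 1.18 for Ifi44 (adjusted p = 0.961 and 0.979), and Irf7 differed by 0.28 ± 0.88. Tested directly, the interaction passed for 0 of 34 members and 0% of features, with a smallest adjusted p of 0.106 over the array and 5872 features at an unadjusted p under 0.05. At that level 8 members had a lower difference in animals labelled male, against 7.62% of genes. The interaction was -3.28 ± 1.18 for Ifit1 (limma adjusted p = 0.297) and -3.42 ± 1.24 for Irf7 (adjusted p = 0.304). Stat2 differed equally in both, with 0.78 ± 0.47 and 0.75 ± 0.47.

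**Figure D5:**
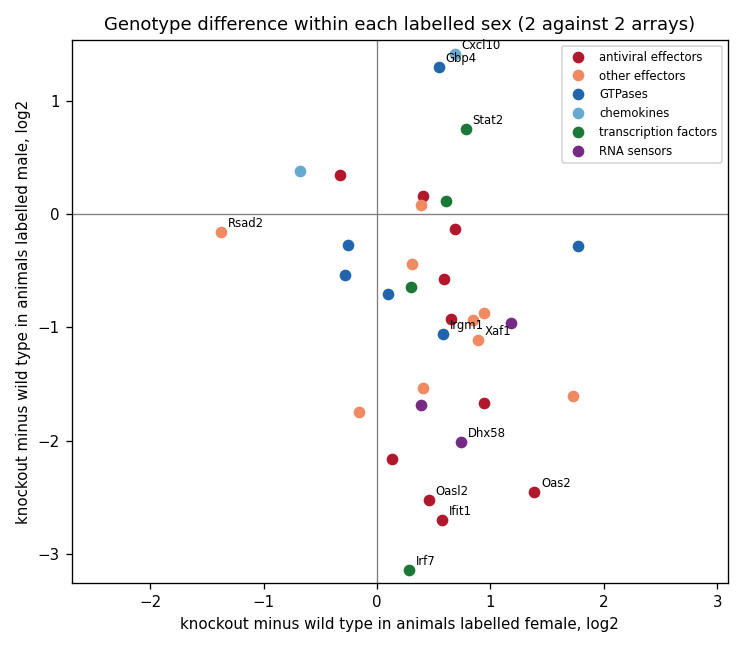
Knockout minus wild type difference in log2 intensity in animals labelled female (x axis) and labelled male (y axis), 1 point per member, coloured by role. Irf7 (0.28 and -3.14), Ifit1 (0.58 and -2.70) and Oasl2 (0.46 and -2.52) lie low on the right, while Cxcl10, Gbp4 and Stat2 are above 0 on both axes.

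Further features gave a check within the array, since 21 of the members had more than 1. These 29 features entered no count over the members, and those of Oas1a, Rsad2, Irf7, Irf9 and Irf1 named above are among them. The genotype difference had the sign of the brightest feature in 14 of 29, and the Mim2 minus Mim1 difference in 23 of 29. Knockout minus wild type, the further features of Ifi44 and Mx1 gave -1.24 and -1.02, against 0.06 and 0.01 in their brightest features. Mim2 minus Mim1, the further features of Irf7, Ifi44 and Mx1 gave -3.22, -3.94 and -2.03, and the dimmest of the 3 Oas2 features gave -2.83. Of the 29 features 18 were above the random probes on all arrays, as were 31 of the 34 brightest features, the exceptions being Mx2, Oas1a and Ifi35.

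The rest of the pathway was read from 83 listed genes, of which 74 were measured. None passed the adjusted threshold, 14 were higher and 2 lower in the knockout at an unadjusted p under 0.05, where 7.7% and 6.61% of all genes were, and the median difference was 0.26, against 0.06 over all genes. Of the 12 measured ligand genes 6 were above the random probes on at most 4 of the 8 arrays (Ifna2, Ifna4, Ifnb1, Ifng, Il28b and Il12b), so no sign is read from them. Ifna1, a type I interferon, differed by 1.25 ± 0.38 (limma adjusted p = 0.28), and Il18, which induces interferon gamma, by 1.17 ± 0.35 (adjusted p = 0.281) with no overlap between genotypes. Ifnb1 read 4.23 to 6.10 and Ifng 4.70 to 7.02. The 6 receptor genes had a median of -0.15, with Ifnar2 at -0.57 ± 0.37 and the interferon lambda receptor Il28ra at -0.56 ± 0.47, and 0 had an unadjusted p under 0.05.

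Among 11 kinases, STATs and other transcription factors, Irf8, a factor of B cells and dendritic cells, differed by 0.98 ± 0.32 (limma adjusted p = 0.291) and Stat3 by -0.92 ± 0.37 (adjusted p = 0.334). Irf8 is also 1 of the 5 plasmacytoid dendritic cell markers above. The brakes included the phosphatase gene Ptpn6, at 0.92 ± 0.26 with no overlap, and Socs1, at -0.53 ± 0.33. Among the genes of nucleic acid sensing, Trim25, a ligase that activates RIG-I, differed by 1.05 ± 0.33, and the Toll-like receptor adaptor Myd88 by -1.14 ± 0.39, each without overlap between genotypes (adjusted p = 0.284 and 0.297).

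Of 31 further interferon-induced genes, 6 were higher and 0 lower in the knockout at an unadjusted p under 0.05, where 7.7% and 6.61% of all genes were. Ifi203, a DNA-binding HIN-200 family gene, read 11.82, 11.24, 12.39 and 12.11 in knockout and 10.46, 10.63, 10.44 and 10.04 in wild-type animals. The groups did not overlap, and the difference was 1.4965 ± 0.32 (limma adjusted p = 0.262). Cxcl11, the third CXCR3 ligand, read 4.43, 5.07, 6.87 and 5.86 in knockout animals, and no wild-type array was above the random probes, so no fold is given. The mean deviation of these 31 genes ran from -0.40 to 0.24 over the arrays, a span of 0.64 log2 units, against 2.49 for the antiviral members. WT-4 was the highest array for 10 of them, against 11.5% of all genes, and the Mim2 arrays the 2 lowest for 8, against 14.4%. Oas1b, Parp12 and Irgm2 are among these 8 and were named after their values were seen.

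Some pathway genes outside the 34 members did pass the adjusted threshold within the labelled sexes, and they too were named after their values were seen. Between Mim2 and Mim1, 2 of 74 measured genes passed, both lower in Mim2, where 1.58% of all genes were lower and passed. Oas1b, Ifi203 and Ido1 passed between genotypes in animals labelled male, where 4.26% of all genes did. Calls this few are no result about the pathway. Oas1b, an OAS family member that is truncated in many laboratory strains, read 9.57, 9.62, 6.63 and 5.75 in knockout and 8.93, 8.46, 8.90 and 10.19 in wild-type animals. The Mim2 arrays were the 2 lowest, as for Ifit1. Oas1b was lower in the Mim2 than in the Mim1 animals (-3.40 ± 0.59, limma adjusted p = 0.0424) and lower in the knockout among animals labelled male (-3.14 ± 0.59, adjusted p = 0.0357). Stat3 was also lower in the Mim2 than in the Mim1 animals (-1.99 ± 0.38, adjusted p = 0.048). Ifi203 (1.91 ± 0.40, adjusted p = 0.0428) and Ido1, which degrades tryptophan (2.11 ± 0.42, adjusted p = 0.0395), were higher in the knockout among animals labelled male, and Ido1 was above the random probes on 1 of the 4 wild-type arrays.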

How the data were processed

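Total RNA of 8 spleens, labelled with Cy3, was hybridised to 1-colour NimbleGen arrays, 4 per genotype, per the labels. For each array the authors deposited linear intensity values per feature. The submitters' processing notes name RMA, a method that corrects background, normalizes between arrays and summarises probes, without a version. Per the file headers, 44155 of 44170 features rest on 3 probes and positions are of build MM9. Gene names are those of the array tables, and 2284 features have none. A deposited series table with 21856 of these features was used as an alternative.

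Values were taken to log2 with no further normalization. Models were fitted with limma 3.58.1 (lmFit, eBayes; R 4.3.3) and tested two-sided, adjusted by Benjamini-Hochberg over all features, with labelled sex as an additive term, and with a second fit holding the genotype by sex interaction. The fits were tested on simulated data. Single members were also tested with an exact two-sided permutation test over 70 arrangements. The members, pathway and marker lists were chosen with earlier results of these data known. Every-array values are given for members without overlap between genotypes, with an unadjusted p under 0.05, with an outlying array or an opposite direction in the labelled sexes, or among the 2 with the smallest p of each role. They are also given for Ifi203, and for Oas1b, which was named after its values were seen. Alternatives were the sex term, variance estimates, array weights, normalization, background filter and floor, choice of feature, the series table, group composition, and leaving out arrays. The number of arrays limits the precision.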

Additional observations from a re-analysis of the deposited data

Results flagged for a closer look

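Outlying arrays were looked for in 68 groups of 4 arrays (each member in each genotype), and chance gives about 1 in 20. In 2 of them 1 array lay far from the others. Isg15 in Mim2-2, at 9.65 against 10.17 in the nearest knockout array, had a gap of 0.880 of the group's range. Oas1a in Mim2-3, at 4.42 against 8.38, had a gap of 0.908.

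In 5 members both knockout animals of one labelled sex lay above both wild-type animals of that sex, and both of the other sex lay below theirs. The share of all genes that do so was not counted, so the number is no result about the members. The interaction, knockout effect in animals labelled male minus that in animals labelled female, was -2.98 for Oasl2 (limma adjusted p = 0.357), 1.06 for Cxcl9 (adjusted p = 0.428), -1.65 for Irgm1 (adjusted p = 0.423), -1.79 for Rtp4 (adjusted p = 0.319) and -2.01 for Xaf1 (adjusted p = 0.308). None passed the threshold.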

How the results depend on the processing

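The count of members past the adjusted threshold was 0 in every alternative run. The count with an unadjusted p under 0.05 and a lower level in the knockout, 1 as reported, was 0 without the sex term, with quantile normalization and with the mean of all features of a gene, and 2 with trended, robust variance estimates and with the features of the series table. Leaving out 1 array at a time it ran from 0 to 4, and the count of higher members from 1 to 3. The lower count was 4 without WT-3 and 0 without Mim1-5, Mim2-2, WT-1 or WT-4, and the higher count 1 without Mim2-3, WT-1 or WT-2. Without both Mim2 arrays, a fit that compares Mim1 with WT-1 and WT-3, the count of higher members was 1 and the median difference 0.5601. In that fit the antiviral difference was 0.5514 and the antiviral minus interferon-gamma type difference 0.2422. Taken as a median over genes, the interferon-gamma type difference was -0.1928. The cause of these changes was not tested. Array weights gave a median of 0.0384. Of the 34 members 9 kept the sign of their difference in every setting (up to 19 per member) and 25 did not. No paired analysis was made, since the labels name no pairs of knockout and wild-type animals. With 4 arrays per group, signal near the random probes limits Mx2, Oas1a and Ifi35.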
